A study of Mus musculus with 2 samples.

Results

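The collagen family in the healing mouse calvaria was taken as the 44 genes, of 32285 in the count matrices, whose symbol has the form Col, a number, the letter a and a number, and which had at least 20 UMIs over both libraries. A UMI, or unique molecular identifier, marks 1 captured messenger molecule. In these matrices 0 genes with such a symbol fell under that minimum, so the list is the whole family as annotated. By type it held 11 fibrillar collagens, 9 collagens of the group that binds to fibrils with interrupted triple helices (FACIT), 6 chains each of the beaded filament collagen VI and the basement membrane collagen IV, 3 short-chain network collagens (Col8a1, Col8a2 and Col10a1), 2 multiplexins (Col15a1 and Col18a1), 4 transmembrane collagens, the anchoring fibril collagen Col7a1, and Col26a1 and Col28a1. The members ranged from 30 UMIs (Col4a3) to 4751924 UMIs (Col1a1).

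Both libraries came from C57BL/6 mice with a defect made in the cranial bone, and they differed in what was injected. The GA group received 1.2 mg/kg gambogic amide, a small molecule agonist of the nerve growth factor receptor TrkA, in 100 µL of 10% DMSO by intraperitoneal injection, daily for 1 week from 24 h before the injury, and the control group received the 10% DMSO vehicle alone on the same schedule. Bone with the defect at its centre, about 3 mm along an edge, was taken at day 7, and its cells were released with collagenase, treated to lyse red cells and captured with the 10x Genomics system. The cells of 5 male mice aged 2 months were pooled into the 1 library of each group, so no difference between groups has a replicate check, no p-value is given, and the intervals printed here cover counting error only.

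Collagens are the triple-helical proteins of the extracellular matrix. Collagen I, built from the chains encoded by Col1a1 and Col1a2, forms the fibrils that bone mineral is laid down on, and collagens III, V and XI join or nucleate such fibrils in soft connective tissue, skin and cartilage. FACIT collagens decorate fibrils, collagen IV forms the sheet-like basement membrane under endothelium and around many other cells, and collagen X is the classical product of hypertrophic cartilage. Frontal bone forms directly from mesenchyme, without a cartilage template.

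After limits on UMIs, genes and mitochondrial share and the removal of predicted doublets, 8376 GA cells and 7555 control cells remained, with a median of 10929.5 and 16336 UMIs per cell. The libraries shared 23 barcodes, 19 of them among the cells kept. Cells were clustered without any collagen among the genes used and named from marker genes that held no collagen, so a collagen level by cell type does not restate the clustering. Cells with mesenchymal or osteoblast markers, called the mesenchymal lineage here, numbered 886 in GA and 1765 in control. A name such as osteoblast means cells that carry the markers of that type, and the plots call them osteoblast-like. No cluster was named as cartilage, epidermis or skeletal muscle. Neutrophil-like cells made up 52.8% of GA cells and 27.6% of control cells. In what follows a level is given as CPM, the UMIs of a gene over all UMIs of the cells named, scaled to 1000000. These 3′ counts register 1 tag per transcript and are not scaled by length, and no length was used.

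Collagen messengers took up 2.68% of all UMIs in GA and 4.23% in control. Of the collagen UMIs 98.8% in GA and 98.6% in control came from the mesenchymal lineage, where the share was 8.94% in GA and 7.85% in control. Osteoblasts led by Bglap, the gene of the bone matrix protein osteocalcin, had the highest share of the subpopulations, at 24.4% and 23.0%. Next came the cells named Stem 2, which carry Cd34, Clec3b and Dpt, with 9.94% and 10.7%. Among the other subpopulations of the lineage with over 30 cells in each library the share ran from 4.20% in GA fibroblastic progenitor cells to 9.26% in the control cells of a cluster led by neutrophil genes.

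**Figure D1:**
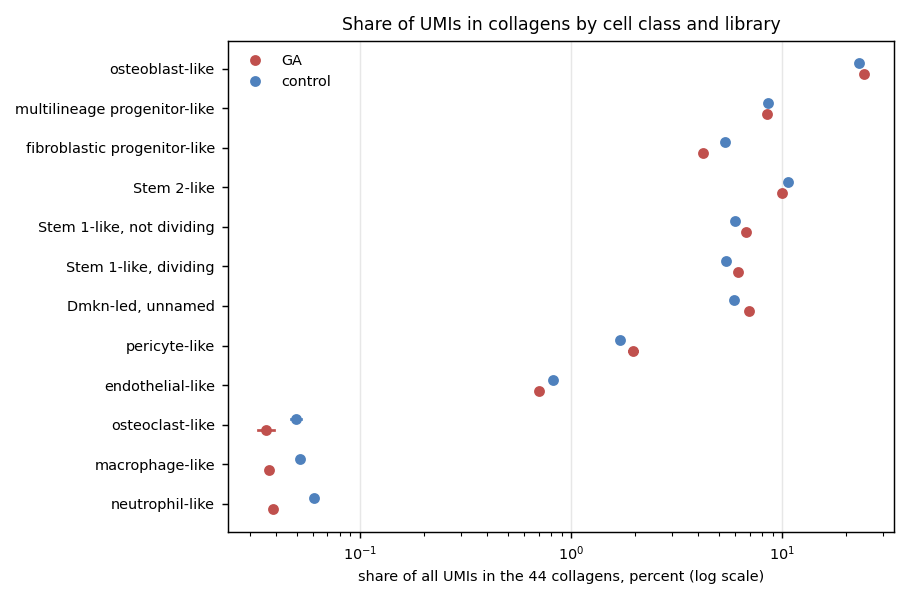
Collagen share of all UMIs, in percent on a log axis, by cell type and subpopulation, with 1 point per library and exact 95% intervals that cover counting error only. Bglap-led osteoblasts stand highest in both libraries, at 24.4% in GA and 23.0% in control, and osteoclasts, macrophages and neutrophils lie far under the endothelial points.

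Outside the lineage, pericyte or smooth muscle cells gave 1.96% of their UMIs to collagens in GA (5 cells) and 1.70% in control (28 cells). Endothelial cells gave 0.706% and 0.823%. Neutrophils, which are not known to make fibrillar collagen, set the level of free RNA in each library, with 125 CPM in GA and 164 CPM in control for Col1a1 and a median of 1 Col1a1 UMI per cell. B cells had the same median, so Col1a1 UMIs in blood cells were read as background throughout. The 0.628% of control erythroid cells was a matter of a few barcodes, since 2 cells held 1733 and 1611 of the 3527 Col1a1 UMIs there.

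The fibrillar collagens held 92.0% of all collagen UMIs, and 3 chains, Col1a1, Col1a2 and Col3a1, held 85.7%. Col1a1 stood at 130623 CPM in GA and 123105 CPM in control in Bglap-led osteoblasts. Col1a2, the partner chain in collagen I, followed at 103063 CPM in GA and 96461 CPM in control. Col3a1, the only chain of collagen III and typical of early scar and loose connective tissue, differed from them in its place in osteoblasts. It peaked in Stem 2 cells at 33214 CPM in GA and 35494 CPM in control and was lowest among the named subpopulations in Bglap-led osteoblasts, at 642 CPM in GA and 1296 CPM in control. The number of Col3a1 UMIs per Col1a1 UMI was 1.13 in GA and 1.11 in control Stem 2 cells, and 0.00492 and 0.0105 in osteoblasts.

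The minor fibrillar collagens split between osteoblasts and fibroblast-like cells. Col5a2 was highest in Bglap-led osteoblasts, at 3481 CPM in GA and 3149 CPM in control, whereas its partner chain Col5a1 had 812 and 825 CPM there, below its 1477 and 1446 CPM in the lineage as a whole. Col5a3 peaked in an unnamed cluster led by Dmkn, Dpt and Ly6c1, with 1405 CPM in GA and 1631 CPM in control. Col11a1 and Col11a2, chains of the collagen XI that is best known from cartilage fibrils, were both highest in Bglap-led osteoblasts. Col11a1 stood there at 1955 CPM in GA and 1809 CPM in control and Col11a2 at 1921 CPM in GA and 1709.9 CPM in control. The pair was near balance in those cells: the number of Col11a1 UMIs per Col11a2 UMI was 1.02 in GA and 1.06 in control, against 44.7 and 39.2 in fibroblastic progenitor cells. Col24a1, a fibrillar collagen of bone, was highest in osteoblasts too (136 and 178 CPM). Col2a1, the defining collagen of cartilage, was counted with 14 UMIs over all GA cells and 48 over all control cells.

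The promoters of 3 members that stood out by cell type are shown: Col11a2 for osteoblasts, Col3a1 for fibroblast-like cells and Col10a1 for a few cells described further on. Each is the 250 bases before the gene's RefSeq start on GRCm38.p6, plus strand, 5′ to 3′, with TATAAA in capitals, and none overlapped an annotated exon.
Col11a2 chr17:34038888-34039137: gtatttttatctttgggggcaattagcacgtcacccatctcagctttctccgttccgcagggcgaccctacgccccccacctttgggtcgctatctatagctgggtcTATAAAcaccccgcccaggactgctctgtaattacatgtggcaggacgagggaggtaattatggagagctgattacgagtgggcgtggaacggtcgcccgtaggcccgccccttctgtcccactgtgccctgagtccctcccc
Col3a1 chr1:45311288-45311537: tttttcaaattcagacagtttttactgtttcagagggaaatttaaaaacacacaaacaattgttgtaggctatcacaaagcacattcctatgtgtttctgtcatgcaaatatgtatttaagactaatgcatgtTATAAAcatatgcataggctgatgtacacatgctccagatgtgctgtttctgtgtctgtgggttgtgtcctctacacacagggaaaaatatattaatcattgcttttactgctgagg
Col10a1 chr10:34389731-34389980: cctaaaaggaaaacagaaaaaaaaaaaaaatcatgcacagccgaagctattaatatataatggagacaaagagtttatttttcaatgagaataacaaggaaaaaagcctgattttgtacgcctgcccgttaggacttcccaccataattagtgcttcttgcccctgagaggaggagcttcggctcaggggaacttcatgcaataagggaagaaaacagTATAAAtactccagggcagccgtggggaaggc
TATAAA was searched on both strands, and its first base lies 32 bases before the start in Col10a1, 117 in Col3a1 and 143 in Col11a2. A promoter window could be matched for 35 of the 44 members. It held TATAAA in 5 of them (Col3a1, Col10a1, Col11a2, Col13a1 and Col17a1), against 12.4% of 32851 windows of all genes. CCAAT was present in 13 members, against 33.8% of all windows. TGTGGT, a core that Runx factors bind, was present in 3 members, against 14.05%. A match describes letters in these windows and does not mark a site of binding.

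Of the FACIT collagens, Col12a1 and Col14a1, which sit on collagen I fibrils of tendon, periosteum and dermis, were the most abundant. Col12a1 peaked in multilineage progenitor cells, at 1647 CPM in GA and 1998 CPM in control. These cells were named from Scx and other markers. The larger cluster so named (77 GA and 228 control cells) was led by Ibsp, Alpl and Fat3, and Ibsp and Alpl are also osteoblast markers here. Col14a1 peaked in Stem 2 cells, at 955 CPM in GA and 1065 CPM in control. Col16a1 had its highest level in multilineage progenitor cells (487 and 547 CPM). Col22a1, known from tissue junctions such as muscle and tendon, was nearly confined to Bglap-led osteoblasts, at 478 CPM in GA and 435 CPM in control. These cells contributed 97.8% of all Col22a1 UMIs in GA and 96.3% in control while holding 2.03% and 1.37% of the library's UMIs. The collagen IX chains, Col9a1, Col9a2 and Col9a3, partners of collagen II in cartilage, had 113, 56 and 270 UMIs in all GA cells and 293, 146 and 725 in all control cells.

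Collagen VI, the beaded filament around connective tissue cells, made up 4.88% of collagen UMIs. Its 3 common chains were highest in the non-dividing Stem 1 cells, which are led by the contractile genes Acta2 and Tagln. The name of these cells rests on 6 of the 10 markers listed for Stem 1, and whether they are stem cells was not tested. Col6a1 stood there at 2545 CPM in GA and 2148 CPM in control, Col6a2 at 1744 and 1450.0 CPM and Col6a3 at 2440.3 and 2207 CPM. The chains kept near-equal proportions in both libraries. In the lineage the number of Col6a1 UMIs per Col6a2 UMI was 1.36 in GA and 1.40 in control, and that of Col6a3 per Col6a1 was 0.832 and 0.852. The rarer chain Col6a6 peaked in Stem 2 cells (83.6 and 90.5 CPM).

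The basement membrane chains Col4a1 and Col4a2 held the most collagen UMIs of any members in endothelial cells. Col4a1 reached 2862 CPM in GA and 3779 CPM in control in endothelial cells and 4567 CPM in GA and 3539 CPM in control in pericyte or smooth muscle cells. Basement membrane chains made up 64.4% of endothelial collagen UMIs in GA and 72.8% in control. In pericyte or smooth muscle cells they made up 34.5% and 31.8%, fewer than the fibrillar collagens, and Col3a1 had 3392 CPM in GA and 2619 CPM in control there, above Col4a2 with 2184 CPM in GA and 1843 CPM in control. The fibroblastic progenitor cells, named from Eln, Mgp, Foxc2 and other markers, had Col4a1 at 595 CPM in GA and 926 CPM in control. They contributed 22.3% of all Col4a1 UMIs in GA and 54.8% in control, while holding 1.23% and 8.75% of the library's UMIs. The genes Col4a1 and Col4a2 lie head to head on chromosome 8, with a 22-base overlap of their annotated ends. Col4a1 UMIs per Col4a2 UMI were 1.70 and 1.71 in endothelial cells of GA and control, and 1.66 and 1.75 in fibroblastic progenitor cells. The ratio was not the same in every cell type. Control pericyte or smooth muscle cells had 2565 Col4a1 and 1336 Col4a2 UMIs, and control non-dividing Stem 1 cells 1097 and 507. GA multilineage progenitor cells had 247 and 182. Of the other collagen IV chains, Col4a5 stood at 63.6 and 61.2 CPM in fibroblastic progenitor cells. In cells with Schwann markers (10 in GA and 16 in control) it stood at 0 and 112 CPM, from 44 UMIs. The 0 in GA is limited by depth, since these cells had medians of 1676.5 UMIs in GA and 18228 in control. Col4a3, Col4a4 and Col4a6 had 9, 119 and 27 UMIs in all GA cells and 15, 154 and 195 in all control cells.

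The multiplexins Col15a1 and Col18a1 are proteoglycans of basement membrane zones. Col18a1, the source of endostatin, had 1397 CPM in GA and 1316 CPM in control in pericyte or smooth muscle cells and 742 CPM in GA and 735 CPM in control in endothelial cells. Col15a1 was highest in endothelial cells, at 354 CPM in GA and 645 CPM in control. The short-chain collagen Col8a1, a component of vessel walls and of the cornea, had 455 and 360.1 CPM in pericyte or smooth muscle cells and 329 and 406 CPM in mesenchymal cells. Its partner Col8a2 peaked in multilineage progenitor cells (136 and 157 CPM). Col7a1, which anchors the epidermal basement membrane to dermis, was present in mesenchymal cells (26.3 and 51.2 CPM). The transmembrane collagen Col13a1 was highest in Bglap-led osteoblasts, with 202 CPM in GA and 262 CPM in control, and Col23a1, of the same type, had 59.0 and 53.0 CPM in fibroblastic progenitor cells.

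**Figure D2:**
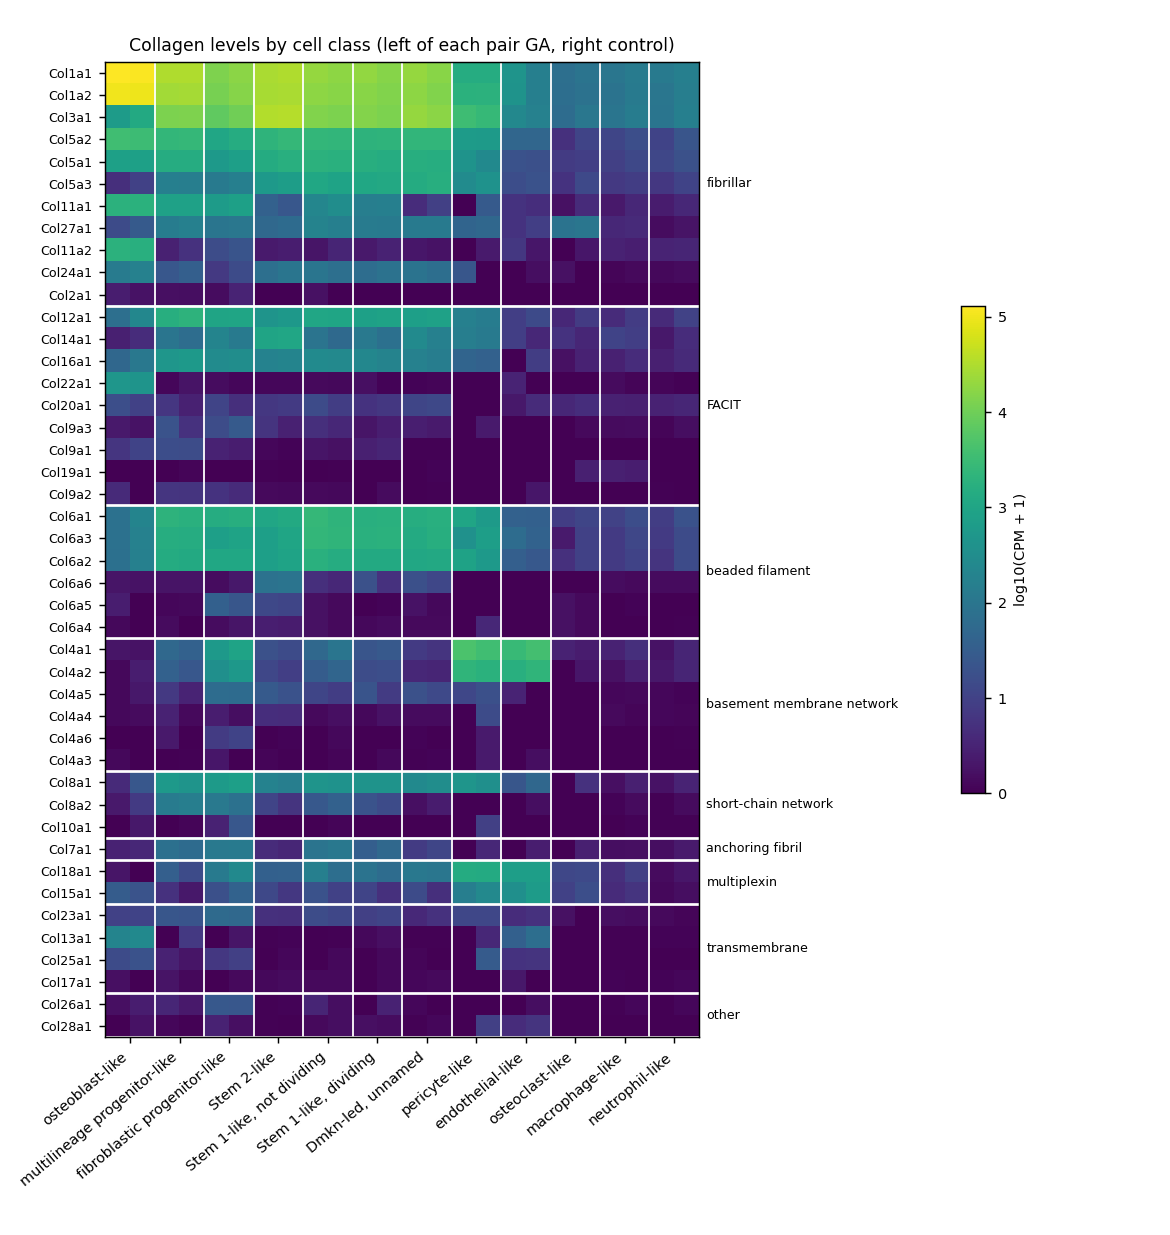
Levels of the 44 collagens (rows, by type) in the subpopulations of the mesenchymal lineage and the main other cell types (columns), as log10 of CPM plus 1. In each pair of columns the left one is GA and the right one control. Levels of fibrillar collagens are highest in mesenchymal and osteoblast cells, those of Col4a1, Col4a2 and the multiplexins in vessel cells.

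Several members were counted with few UMIs over all cells of a library. Col20a1, a FACIT collagen, had 622 UMIs in GA and 855 in control. Its level was highest in cells with Schwann markers, at 153 CPM in GA (10 cells) and 155 CPM in control (16 cells). These cells held 64 Col20a1 UMIs, nearly all of them in control, since the GA cells held 19608 UMIs of all genes against 394174. Col20a1 was found in 10% of these GA cells and 43.8% of these control cells, so the GA level rests on very few UMIs. Of the transmembrane collagens, Col25a1 had 195 and 329 UMIs in all cells, and the epithelial collagen Col17a1 had 34 and 51. Of the minor collagen VI chains, Col6a5 had 254 and 656 UMIs and Col6a4 37 and 69. Col28a1 had 26 and 56 UMIs. For Col2a1 the deposited control matrix held 134 UMIs, of which 86 were in barcodes marked as doublets and 84 in 1 barcode.

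The family is spread over the genome with 8 pairs of neighbours, in the mm10 annotation. Col4a1 (chr8:11198423-11312826, minus strand) and Col4a2 (chr8:11312805-11449287, plus strand) are the head-to-head pair with the ratios given above. Col4a4 and Col4a3 on chromosome 1 lie head to head as well, 71 bases apart, as do Col4a6 and Col4a5 on chromosome X, 1308 bases apart. Col3a1 and Col5a2 lie tail to tail on chromosome 1, 24614 bases apart, and their highest levels lay in different subpopulations, Stem 2 cells for Col3a1 and Bglap-led osteoblasts for Col5a2. The other pairs are Col9a1 with Col19a1, Col6a2 with Col6a1, and Col6a6, Col6a5 and Col6a4 in tandem.

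A few cell types outside stroma and vessels carried collagens other than collagen I above their level in neutrophils. Osteoclasts, the bone-resorbing cells of the macrophage lineage, had 87.2 CPM in GA and 99.9 CPM in control for Col27a1, a fibrillar collagen of cartilage, from 129 UMIs in 19 of 31 GA cells and 279 UMIs in 39 of 58 control cells. Neutrophils had 0.490 CPM in GA and 0.830 CPM in control. Osteoclasts also had 8.79 and 15.8 CPM of Col15a1 in GA and control, against 0.303 and 0.574 CPM in neutrophils, and 11.5 and 12.2 CPM of Col18a1, against 0.420 and 1.08 CPM. In macrophages led by Pf4 and C1q genes Col18a1 stood at 7.80 CPM in GA and 14.7 CPM in control, and in those led by Apoe and C1q genes, with Mrc1, Col15a1 stood at 8.26 CPM in GA and 10.5 CPM in control. Scaled to free collagen I, macrophages and monocytes had 39.7 Col18a1 UMIs per 1000 Col1a1 UMIs in GA and 63.3 in control, against 3.35 and 6.61 in neutrophils. T or NK cells had 10.7 and 14.7 CPM of Col19a1 in GA and control, from 20 UMIs (8 cells) and 26 UMIs (7 cells). Plasmacytoid dendritic cells had 12.2 and 4.93 CPM of it, from 13 and 4 UMIs, and neutrophils had 2 and 0 UMIs. Over all cells Col19a1 had 164 UMIs in GA and 130 in control, so most lay outside the cell types just named. B cells had 99 Col25a1 UMIs in GA and 75 in control, against 0 in neutrophils. They also had 77 and 78 Col27a1 UMIs, or 113 and 97.0 per 1000 Col1a1 UMIs, against 3.91 and 5.06 in neutrophils.

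Counted over all cells, most collagens were lower in the GA library. Of the 39 members with at least 200 UMIs, 36 had a log2 ratio of GA over control under 0, and 20 were lower by more than 1 log2 unit, while 6.90% of the 15318 genes with as many UMIs were lower by that much. No member was higher by that much, against 3.17% of all genes. The median log2 ratio of the members was -1.02, against -0.08 for all genes. Col1a1 stood at 9402 CPM in GA and 13726 CPM in control (log2 ratio -0.55 [-0.55 to -0.54]), Col1a2 at 8008 CPM in GA and 12004 CPM in control (-0.58) and Col3a1 at 6104 CPM in GA and 10087 CPM in control (-0.72). The 3 members above 0 were Col11a2 (0.60), Col22a1 (0.68) and Col19a1 (0.54). In this comparison fewer cells of a type and less RNA per cell cannot be told apart: mesenchymal lineage cells were 886 of 8376 in GA and 1765 of 7555 in control, and neutrophils 4423 and 2083.

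The members over 1 log2 unit lower in all cells covered most types. They were the basement membrane chains Col4a1 (32.7 and 148 CPM, log2 ratio -2.18), Col4a2 (-2.10) and Col4a6 (-2.65), and the multiplexins Col15a1 (-1.16) and Col18a1 (-1.14). All 3 short-chain collagens were among them, with Col8a1 at -1.22, Col8a2 at -1.57 and Col10a1 at -5.29. Of the beaded filament chains, Col6a1 (-1.02), Col6a3 (-1.06) and Col6a5 (-1.17) were included, and of the FACIT collagens Col12a1 (-1.22), Col16a1 (-1.11), Col9a1 (-1.17), Col9a2 (-1.18) and Col9a3 (-1.22). Col11a1 (-1.16) was the only fibrillar member. The others were Col7a1 (7.65 and 27.3 CPM, -1.83), the transmembrane Col23a1 (-1.54) and Col26a1 (-2.18).

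Within the mesenchymal lineage the picture was different. Of 35 members with at least 200 UMIs there, 7 lay over 1 log2 unit from 0, against 3.40% of 12839 genes. Higher in GA were 2 (all genes 1.75%) and lower 5 (all genes 1.64%). Col11a2 was higher in GA, at 133 CPM in GA and 49.2 CPM in control (log2 ratio 1.44 [1.38 to 1.49]). Col22a1 was also higher, at 33.0 CPM in GA and 11.5 CPM in control (1.52 [1.41 to 1.63]). Both are osteoblast collagens in these data. The 5 lower members were Col4a1, Col4a2, Col7a1, Col26a1 and Col10a1. Col4a1 stood at 45.6 CPM in GA and 177 CPM in control (-1.96 [-2.02 to -1.89]). Col4a2 followed it at 28.1 CPM in GA and 100.1 CPM in control (-1.83 [-1.91 to -1.75]). Col7a1 had 24.7 CPM in GA and 49.9 CPM in control (-1.01 [-1.11 to -0.92]), with an interval that spans the limit of 1 log2 unit.

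Col26a1 stood at 1.60 CPM in GA and 4.42 CPM in control (-1.47 [-1.84 to -1.11]), and part of its reads could belong to the overlapping same-strand gene Gm20485. Col10a1 was at 0.0842 CPM in GA and 3.94 CPM in control (-5.55 [-7.43 to -4.18]), from 4 and 386 UMIs. The fibrils' main chains were close to 0 in this comparison: Col1a1 at 0.30 [0.29 to 0.30], Col1a2 at 0.26 and Col3a1 at 0.12. Over the 35 members the median was -0.18, with 21 below and 14 above 0, against -0.02 for all genes.

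The make-up of the lineage differed between the libraries. Bglap-led osteoblasts were 88 cells or 9.93% of the lineage in GA and 63 cells or 3.57% in control. Fibroblastic progenitor cells were 54 cells or 6.09% in GA and 363 cells or 20.6% in control. When every subpopulation was given its control share of UMIs, the log2 ratio of Col11a2 was 0.11 and that of Col22a1 0.13. Under the same weights Col4a1 stood at -0.56, Col4a2 at -0.45, Col7a1 at -0.12 and Col26a1 at 0.12, the last on the other side of 0. The transmembrane collagen Col13a1 stood at 0.82 as measured and -0.58 with control shares. Only Col10a1, at -3.55, stayed over 1 log2 unit from 0, where 2.15% of all genes did. Col1a1, Col1a2 and Col3a1 lay between -0.01 and 0.02. With each cell thinned to 2000 UMIs instead, 3 members were over 1 log2 unit from 0 in the lineage, against 1.43% of all genes.

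**Figure D3:**
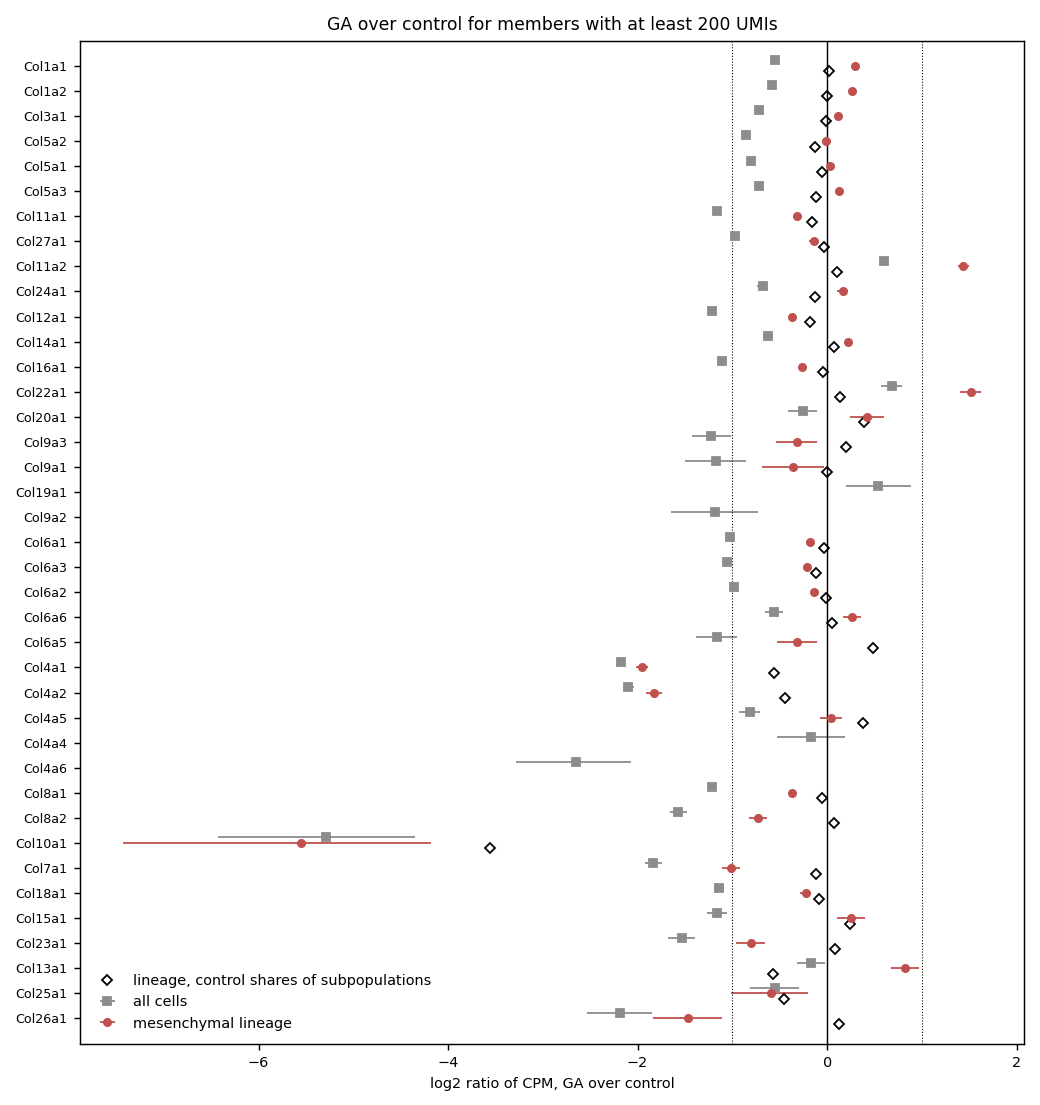
Log2 ratio of GA over control for each member with at least 200 UMIs, with 95% intervals that cover counting error only. Grey squares are all cells, red circles the mesenchymal lineage, open diamonds the lineage with the control shares of its subpopulations, and dotted lines mark 1 log2 unit either way. Most squares lie left of the circles, and with control shares only Col10a1 remains outside the dotted lines.

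In Bglap-led osteoblasts 15 members had at least 200 UMIs. Of these 6 were lower in GA by more than 1 log2 unit, against 0.717% of all genes there, and the other 9 ran from -0.39 (Col24a1) to 0.17 (Col11a2). Col11a2 had a log2 ratio of 0.17 [0.11 to 0.22] and Col22a1 of 0.14 [0.02 to 0.25], and Col1a1 one of 0.09 [0.08 to 0.09]. Col11a2 was found in 97.7% of GA and 98.4% of control osteoblasts, which had medians of 39632 and 40572 UMIs, and in 2.10% and 1.63% of neutrophils, which had 7049 and 5091. Of the 6 lower members, Col12a1 was at 72.2 CPM in GA and 234 CPM in control (-1.69 [-1.92 to -1.47]) and Col3a1 at 642 CPM in GA and 1296 CPM in control (-1.01 [-1.09 to -0.93]). The 3 collagen VI chains were at -1.39 (Col6a1), -1.16 (Col6a2) and -1.12 (Col6a3), and Col16a1 was at -1.14. The class joins a cluster of 77 GA and 58 control cells and another of 11 GA and 5 control cells. In the smaller cluster Col3a1 was higher in GA, at 725 CPM from 304 UMIs against 206 CPM from 33 UMIs in control. Each other gene of the 6 was also higher in GA there, from at most 15 UMIs in either library.

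Each of these 6 genes had a higher level in the multilineage progenitor cells of its library than in the osteoblasts, for instance 1647 and 1998 CPM for Col12a1 in multilineage progenitor cells. This was not particular to multilineage progenitor cells. By the mean of the libraries, Bglap-led osteoblasts were lowest of lineage subpopulations in Col12a1, Col6a1, Col6a2 and Col6a3 (153, 142, 122 and 127 CPM). Fmod, a proteoglycan of tendon and other fibrous tissue, stood at 37.2 CPM in GA and 132 CPM in control in the same osteoblasts. It was the only 1 of 6 tested fibril-binding genes beyond 1 log2 unit there, and the other 5 lay within it. The summed level of 10 neutrophil markers was 3199 CPM in GA and 868 CPM in control osteoblasts, with 0 of the 10 at zero. The part of other cells' RNA in these differences was not tested.

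The fibroblastic progenitor cells had 29 members with at least 200 UMIs, of which 4 were lower in GA by more than 1 log2 unit, against 1.36% of all genes there, and 0 were higher, against 2.23%. Col18a1 was at 119.6 CPM in GA and 261 CPM in control (-1.13 [-1.32 to -0.94]). Col15a1 was at 16.8 CPM in GA and 40.2 CPM in control (-1.26 [-1.81 to -0.76]), so both multiplexins were among the 4. Col24a1 was at 6.11 CPM in GA and 13.4 CPM in control (-1.14 [-2.11 to -0.30]), a value that the overlapping same-strand gene D530037P16Rik could share. The other members that were lower in the lineage lay nearer 0 within these cells. Col4a1 had a log2 ratio of -0.64 [-0.73 to -0.55], Col4a2 of -0.56 [-0.67 to -0.45], Col7a1 of -0.09 and Col26a1 of 0.10. In the other direction Col14a1 stood at 199 CPM in GA and 119.8 CPM in control (0.74). The class joins 2 clusters, led by Igf2, Slc4a10 and Ptgds (35 GA and 184 control cells) and by Eln, Mgp and Col4a1 (19 and 179).

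Col10a1 was the remaining one of the 4. It had 2.04 CPM in GA and 23.4 CPM in control, from 4 UMIs in 3 of 54 GA cells and 378 UMIs in 38 of 363 control cells (-3.52 [-5.41 to -2.16]). That interval takes each UMI as independent. Counted by cell, Col10a1 was found in 5.56% [1.16 to 15.4] of these GA cells and 10.5% [7.52 to 14.1] of these control cells, and these intervals overlap. In the deposited matrices as a whole it had 37 UMIs in 12 GA barcodes and 532 UMIs in 67 control barcodes. Of the 37 GA UMIs, 28 were in 4 barcodes marked as doublets, 24 of them in 1 barcode, and of the control UMIs 124 were in marked doublets. With no doublets removed the log2 ratio over all cells was -3.62 instead of -5.29. The signal rested on few cells, since 5 of the 60 control cells kept held 49.9% of the UMIs there. Both clusters of fibroblastic progenitor cells held it in control, at 29.9 and 18.7 CPM, against 3.63 CPM and 0 UMIs in GA.

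The 38 control cells with Col10a1 were set beside the 325 without it, as a description. Acan, the main proteoglycan of cartilage, stood at 128 CPM in cells with Col10a1 and 143 CPM in those without. Sox9, the regulator of chondrocyte identity, had 88.2 and 119 CPM. Comp had 4.01 and 10.4 CPM, and Matn3, a chondrocyte marker used here, 9.16 and 6.05 CPM from 16 and 87 UMIs. Col2a1 had 0 and 2.57 CPM, from 0 and 37 UMIs. Its counts rested on few barcodes, since a single cell held 19 of the 48 Col2a1 UMIs in control cells kept. Genes of bone went both ways. Alpl, the phosphatase of mineralising cells, was lower in the cells with Col10a1, at 4.01 against 34.3 CPM, and Runx2 had 279 against 376 CPM. Spp1 was higher, at 345 against 274 CPM. Ibsp had 2 and 5 UMIs, Sp7 0 and 17 and Bglap 6 and 60. Ptgds, a gene of meningeal fibroblasts, was lower, at 0.572 against 187 CPM. Mmp13, a collagenase of hypertrophic cartilage and bone, was higher, at 191 against 128 CPM, and so was Col4a1, at 1340.2 against 876 CPM. The median depth of the cells was 43640.0 and 40759 UMIs.

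In the other named subpopulations and the Dmkn-led cluster 0 to 2 members differed by more than 1 log2 unit. In Stem 2 cells these were 2 of 25, against 2.49% of all genes there: Col15a1 (1.04 [0.70 to 1.37]) and Col8a2 (1.10 [0.73 to 1.47]), both higher in GA. The class joins several clusters, and most Col8a2 UMIs lay in the one led by Mmp3, Dpt and Clec3b, with 125 in GA and 105 in control. The other clusters had 7 and 3 Col8a2 UMIs in GA and 5 and 7 in control. In multilineage progenitor cells it was 1 of 23, against 0.959%: Col18a1, at 34.5 CPM in GA and 13.9 CPM in control. In the non-dividing Stem 1 cells it was 1 of 21, against 1.89%, again Col18a1, at 162 CPM in GA and 68.4 CPM in control (1.25 [1.08 to 1.41]). In the dividing Stem 1 cells it was 0 of 21, against 1.62%. The Dmkn-led cluster had 2 of 22, against 1.89%: Col15a1, higher at 13.8 CPM in GA and 3.96 CPM in control, and Col11a1, lower with a log2 ratio of -1.24.

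In the cluster led by S100a8, S100a9 and Ngp, with 34 GA and 37 control cells, 4 of 18 members differed by more than 1 log2 unit, against 10.1%. These leading genes are neutrophil markers here. The cluster stayed unnamed, with Stem 2 as its closest match (7 of 12 markers), and whether its cells hold mixed RNA was not tested. The furthest from 0 was Col5a3, at 627 CPM in GA and 108 CPM in control (2.53 [2.31 to 2.76]), counted with 1184 and 189 UMIs. Col18a1 was higher as well (1.70 [1.22 to 2.21]), and Col12a1 (-1.16 [-1.25 to -1.07]) and Col8a2 (-1.08 [-1.45 to -0.73]) were lower. The cluster led by Csmd1, Hp and Cxcl12 had 7 GA and 8 control cells and 1 of 3 members over 1 log2 unit, against 57.9%: Col8a1, from 49 and 174 UMIs (-2.83 [-3.32 to -2.36]).

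In endothelial cells 2 of 7 members were higher in GA by more than 1 log2 unit, against 1.71% of all genes there. They were Col1a1, at 436 CPM in GA and 161 CPM in control, and Col1a2, at 415 CPM in GA and 159 CPM in control, and 228 of the 382 Col1a1 UMIs in GA came from 1 cell. The collagens that belong to endothelium differed by less. Col4a1 had a log2 ratio of -0.40 [-0.47 to -0.34], Col18a1 of 0.01 and Col15a1 of -0.87 [-1.05 to -0.69]. In pericyte or smooth muscle cells, with 5 GA cells, 0 of 14 members differed by that much, against 11.8% of all genes there.

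Genes that process collagen were set beside all genes in the lineage, of which 3.40% lay over 1 log2 unit from 0. In lists this short, a count of 0 does not set a list apart from that share. Of 19 tested genes for chain modification and folding 0 lay over 1 log2 unit from 0, with a median of 0.04, and Serpinh1, the collagen chaperone Hsp47, stood at 2273 CPM in GA and 2206 CPM in control. Of 7 genes for propeptide removal and 5 lysyl oxidases for cross-linking 0 did, with medians of 0.07 and 0.07, and Lox had 714 and 682 CPM. None of 12 fibril-binding proteoglycans and glycoproteins did, although Prelp stood at 0.94 and Fmod at -0.68.

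Of 8 collagen receptors 1 was lower (all genes 1.64%), the integrin chain Itga2, at 11.9 CPM in GA and 28.7 CPM in control. Of 7 genes for collagen degradation 2 were higher (all genes 1.75%), Mmp8 (3.01) and Mmp9 (1.59). Both are made by neutrophils, and Mmp8 is one of the neutrophil markers used here. The summed level of the 10 markers in lineage cells was 1823 CPM in GA and 218 CPM in control, with 0 of them at zero, and the part of neutrophil RNA in these 2 values was not tested. Over all cells the medians of the same 6 lists ran from -0.82 (receptors) to -0.71 (modification and folding).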

How the data were processed

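Single-cell RNA was measured from calvarial defects of GA and control mice, with 1 pooled library each. The authors deposited UMI counts per gene and cell made with Cell Ranger (7.0.1 per the file headers) on mm10. Whether intronic reads were counted is not given in the sources used here. The labels give a dose of 1.2 mg/kg for 1 week, and the study's methods give 2 mg/kg for 4 weeks. Barcodes held 182949385 UMIs (GA) and 214993030 UMIs (control).

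Cells with 500 to 140000 UMIs, 200 to 9500 genes and at most 15% mitochondrial UMIs were kept, as far as the study's limits could be followed. A doublet caller's own threshold marked 0 GA and 32 control barcodes, so the highest scores were marked instead, at 0.8% per 1000 barcodes. Pearson residuals of 2000 variable genes without collagens gave 50 components, which were corrected with Harmony and clustered (Leiden, resolution 1). Clusters were named from marker lists without collagens, and the thresholds for naming (a pseudocount of 10 CPM among them) were settled after clusters had been seen. UMIs were summed per cell type and library. Log2 ratios of CPM carry exact conditional binomial 95% intervals, and shares exact Clopper-Pearson ones. A member counts as beyond 1 log2 unit with at least 200 UMIs over both libraries.

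Named genes are all members by the rule, in full for the highest of each type and those beyond 1 log2 unit in all cells or in the lineage, plus fixed lists of collagen pathway genes. The members and lists were chosen with earlier results of these data known. Tools were scanpy 1.11, scipy 1.17 and numpy 2.4, and the statistics were tested on simulated data. Columns of samples outside the series numbered 0.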

Additional observations from a re-analysis of the deposited data

Results flagged for a closer look

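The results below are given as values only, and the differences between subpopulations were not tested. The multiplexin Col15a1 had a log2 ratio of GA over control of 1.04 in Stem 2 cells and 1.80 in the Dmkn-led cluster, and of -1.26 in fibroblastic progenitor cells, so the libraries differed in opposite directions. Its companion Col18a1 stood at 1.25 in non-dividing Stem 1 cells, 1.31 in multilineage progenitor cells and 1.70 in the cluster led by S100a8, S100a9 and Ngp, and at -1.13 in fibroblastic progenitor cells. Col8a2 stood at 1.10 in Stem 2 cells, where most of its UMIs came from a single cluster, and at -1.08 in the unnamed S100a8-led cluster. Barcodes marked as doublets, which entered only the runs with no doublets removed, held 28 Col10a1 UMIs in the GA library, more than the 9 in all GA cells kept.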

How the results depend on the processing

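No paired analysis was possible because each group has 1 library. The count of members beyond 1 log2 unit was 17 to 27 over 8 alternatives in all cells, where the main run gave 20 of 39. It was 1 to 9 over 19 alternatives in the mesenchymal lineage, where the main run gave 7 of 35, against 3.40% of all genes. In the lineage it was 1 with control shares of the subpopulations, against 2.15% of all genes. With cells thinned to 2000 UMIs, where all counts are smaller, it was 3, against 1.43%. The share over all genes is not given here for the other alternatives, so the ranges are not set beside it. Col26a1 changed sign to 0.12 with control shares, and no other member beyond 1 log2 unit in all cells or the lineage did under any alternative run. The log2 ratios within single subpopulations and other cell types were not rerun. The median over members ran from -0.20 to -0.04 in the lineage. In all cells it was -1.31 as a mean of per-cell CPM and -1.30 with thinned cells. Col10a1 in the lineage ranged from -8.10 to -3.07. The collagen share of the lineage in GA was 9.23% as a mean over cells, 8.91% less the neutrophil level, 10.2% without unnamed clusters, 9.20% thinned, 8.62% with doublets, 8.93% at a 10% mitochondrial limit, 8.96% without Harmony, 8.97% at either other resolution and over other seeds, 8.96% with log1p values, 8.97% with collagens among the variable genes and 9.02% with cells named singly. In control the first 6 of these gave 8.13%, 7.79%, 8.28%, 8.13%, 7.82% and 7.77%, log1p 7.84%, collagens as variable genes 7.87%, single naming 7.93% and cells over 2000 UMIs 7.84%. The endothelial share in GA was 1.14% as a mean over cells, 0.668% less the neutrophil level, 1.01% thinned, 0.643% without Harmony, 0.688% at resolution 2, 0.665% with log1p and 0.382% with single naming. In control it was 0.838%, 0.763% and 0.802% for the first 3, 0.871% with doublets, 0.872% at the 10% limit, 0.615% with single naming and 0.802% over 2000 UMIs. The cause of these shifts was not tested. A member with few UMIs in a cell type is limited by depth, and with 1 library per group the spread between animals is unknown.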
